A study of Drosophila melanogaster with 22 samples.

Results

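Separate collections of flies labelled as the same strain were set side by side to see which messages of the head were at the same level in both and which were not. The libraries compared are the 7 mock libraries of w1118 heads, 3 of Exp 1 and 4 of Exp 2, of 22 libraries in the series, and all 17101 genes that the count files list were examined. By their labels both groups were isogenic w1118 flies, a strain with a mutant white gene, taken as virgin females, aged for 1 day, and reared at 25°C and 70% humidity with 12 h of light a day. Each replicate pooled the heads of 100 flies that had been kept frozen for 3 days. The sources name no transgene in either group and no agent given to the flies. RNA was poly(A)-selected, given a spike-in RNA, and split into a part treated with CMC, a reagent that marks pseudouridine and halts the reverse transcriptase beside it, and a mock part that went through the same buffers and alkaline step without CMC. The 4 RluA-2 mock libraries of Exp 2, from flies that lack the pseudouridine synthase RluA-2 and were collected alongside the Exp 2 w1118 flies, are given as a further reading of Exp 2. The experiment, the fly stock at the time of collection, the collection, the library batch and the sequencing were 1 factor and cannot be told apart. No source says that the replicates of an experiment were separate cultures, so the p-values measure the spread between these samples, which may in part be technical.

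The adult fly head holds the compound eyes, the brain, fat body, muscle, glia, blood cells and cuticle, so its RNA is a mixture. In the days after a fly leaves the pupal case, the new cuticle is tanned and hardened, the larval fat body is lost and stored larval proteins are used up, and the eyes and brain come under the daily clock. Heat-shock genes respond within minutes to warmth or handling, and detoxification genes respond to food. In RNA from whole heads, fewer cells of a type and less RNA per cell cannot be told apart.

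Total gene counts of the 7 mock libraries ran from 12035142 to 30701799, and 12337 to 13220 genes had at least 1 count. Cytoplasmic rRNA made up 54.0 to 66.3% of the listed terminations in Exp 1 and 49.9 to 68.4% in Exp 2. The first principal component of the libraries held 59.5% of the variance and separated the experiments, with all Exp 1 libraries on one side and all Exp 2 libraries on the other. Across genes, the log levels of any pair of libraries correlated at 0.991 to 0.993 within Exp 1, at 0.992 to 0.996 within Exp 2 and at 0.977 to 0.984 between the experiments. The biological coefficient of variation was 12.1% among the 3 libraries of Exp 1 and 8.09% among the 4 of Exp 2.

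Most genes were close in level in both collections, and a large minority differed by small, repeatable amounts. Of 10253 genes tested with edgeR's quasi-likelihood test, 3366 (32.8%) had an adjusted p under 0.05, of which 1790 (17.5%) were higher and 1576 (15.4%) lower in Exp 2. At least a 2-fold difference was found for 398 genes (3.88%), 171 higher (1.67%) and 227 lower (2.21%). The values of the experiments did not overlap for 4170 genes (40.7%). A gene was called bounded where the 95% interval of its difference lay within 1.5-fold in either direction, and 6940 genes (67.7%) were bounded. The lists of changed and bounded genes shared 1578 genes, since a small difference can be both repeatable and bounded, while 1525 genes were neither. The median size of the difference was 0.20 on the log2 scale. Without the library of each experiment that held the most rRNA (Exp 1 replicate 3 and Exp 2 replicate 3), 2010 of 10378 genes were called, 1916 of them among the 3366.

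**Figure D1:**
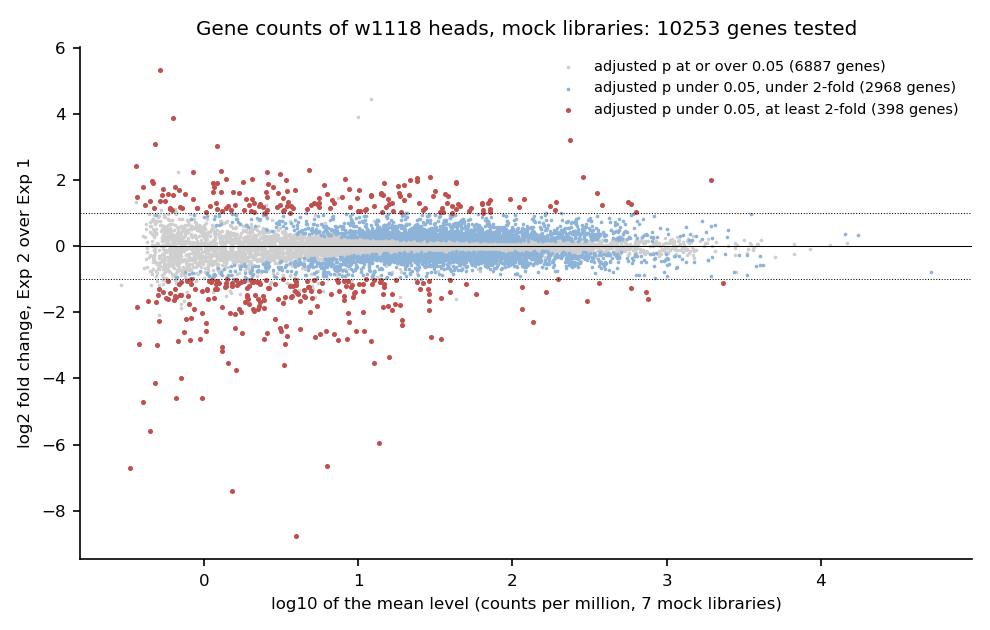
Each point is a gene of the deposited count tables, with its mean level over the 7 mock libraries on the x axis (log10 of CPM) and its log2 fold change, Exp 2 over Exp 1, on the y axis. The dotted lines mark 2-fold, and the 398 genes past it with an adjusted p under 0.05 are drawn in red, most of them at low levels.

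The share of genes past 2-fold fell with the level, and the share past the test rose. Among the 25% of genes with the lowest levels (0.269 to 7.11 CPM, counts scaled to a common library size), 9.87% differed at least 2-fold, 20.7% passed the test and 27.9% were bounded. Among the 25% with the highest levels (68.0 to 50246 CPM), 1.17% differed at least 2-fold, 41.8% passed the test and 81.8% were bounded. For most low genes that did not pass, the interval of the difference was wider than 1.5-fold, so that a change could not be told from none at this depth.

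Among genes with a mean of at least 10 CPM, the largest differences by identifier were over 8-fold. FBgn0002563 was at 33.4, 59.9 and 44.1 CPM in Exp 1 and at 486, 500, 342 and 376 in Exp 2, a log2 difference of 3.22 (SE 0.21, adjusted p = 1.07e-05 by edgeR). FBgn0004191 was at 13.8, 10.6 and 13.1 CPM in Exp 1 and at 0.0648, 0.104, 0.0817 and 0.223 in Exp 2, a log2 difference of −6.65 (SE 0.25, adjusted p = 4.03e-07). Both genes separate the experiments fully, and no identifier was at 0 in every library of 1 experiment and at 10 counts or more in every library of the other.

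The count tables list genes by identifier, and identifier and symbol are paired for 174 genes only, of which 70 were tested and 27 passed, 16 of them higher in Exp 2. Among these was mfas (midline fasciclin), a cell adhesion protein, which rose from a mean of 189 to 321 CPM. Treh, the enzyme that splits trehalose, the main blood sugar of insects, was at 380, 381 and 395 CPM in Exp 1 and at 509, 524, 512 and 500 in Exp 2, a log2 difference of 0.41 (SE 0.05, adjusted p = 0.000498 by edgeR). The glutamate receptor gene mGluR fell from 83.0 to 56.8 CPM. The male dosage-compensation RNA roX1 (lncRNA:roX1) was at 9.32, 3.06 and 9.39 CPM in Exp 1 and at 23.0, 4.15, 5.07 and 4.2 in Exp 2, with no difference past the test (adjusted p = 0.661).

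To name more genes, the reverse transcription ends (terminations) listed within each gene's span were summed, and 5933 protein-coding genes could be tested in this way. Mock terminations are listed only at positions where the CMC library of the pair has one, so each sum was corrected for the share of the gene so listed, and levels below are CPM corrected for that share. For 41 genes measured in both ways, the log2 differences correlated at 0.951 across genes, which are not independent replicates, and the terminations differed from the gene counts by −0.07 at the median (SD 0.10). The largest gap was that of LanA, a laminin chain, with a log2 difference of 0.78 from gene counts and 0.35 from terminations. Among genes with large CMC differences, the slope of the mock on the CMC difference was 0.82 by gene counts. By terminations it was 0.70 for listed shares of 20 to 30% and 0.78 for shares above 70%. Whether the correction damps differences, and so raises the count of bounded named genes, was not tested. For 518 of the 5933 genes (8.73%) the listed shares of the experiments differed more than 1.5-fold, and for such genes the difference in the CMC libraries, where all terminations are listed, is given beside the mock value. Of the named genes, 1660 (28.0%) passed the test, 830 higher and 830 lower (14% each), 97 (1.63%) differed at least 2-fold (1.06% higher and 0.573% lower), and 4306 (72.6%) were bounded. All values below refer to these named genes, and each p is from edgeR's quasi-likelihood test adjusted over all 5933. For each list below, the background of the mock counts is 14% higher and 14% lower. In the CMC libraries 43.8% of 8748 named genes passed, 22.5% higher and 21.3% lower, and these are the background of the CMC counts below.

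The largest rise in Exp 2 was that of Lsp1beta. Lsp1beta, a storage protein made by the larval fat body, was at 50.02, 70.4 and 50.4 CPM in Exp 1 and at 594, 613, 406 and 451 in Exp 2, a log2 difference of 3.18 (SE 0.17, adjusted p = 1.63e-07). The RluA-2 libraries of Exp 2 held 8.65 to 18.9 CPM of it, below both w1118 groups. Lsp2, a related storage protein that the adult fat body also makes and the eighth of the 12 rises by size, was at 736, 867 and 1089 CPM in Exp 1 and at 3208, 3171, 3259 and 3118 in Exp 2 (log2 difference 1.83, SE 0.11, adjusted p = 5.05e-07), and at 934 to 1381 in the RluA-2 libraries. The 4 Exp 2 libraries of Lsp2 lay close together while those of Exp 1 spread more widely, and the groups did not overlap. The CMC libraries of the same RNA gave differences of 3.33 for Lsp1beta and 1.96 for Lsp2.

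The other large rises had mixed roles. The rise with the smallest error among the 12 was that of regucalcin, which codes for a calcium-binding protein, at 129, 126 and 136 CPM in Exp 1 and at 519, 546, 541 and 549 in Exp 2 (log2 difference 2.05, SE 0.07, adjusted p = 7.19e-10). The RluA-2 libraries held 311 to 369, above all Exp 1 libraries and below all Exp 2 w1118 libraries. NtR, a nicotinic acetylcholine receptor-like protein, rose by 2.10 (SE 0.22), Had2, a predicted hydroxyacyl-CoA dehydrogenase, by 2.04 (SE 0.30), lectin-24Db, a C-type lectin, by 1.92 (SE 0.29), and Plod, a procollagen lysyl hydroxylase of collagen-making cells, by 1.79 (SE 0.21). The listed share was 6.52% in Exp 1 and 35.7% in Exp 2 for NtR, 9.18 and 39.7% for Had2, and 11.2 and 42.5% for lectin-24Db, and the CMC libraries gave differences of 2.37, 2.10 and 2.05. The uncharacterised genes CG17107, CG6310, CG1092, CG4950 and CG15449 rose by 1.76 to 2.38. All 5 had a lower listed share in Exp 1 than in Exp 2, from 5.62 against 42.5% for CG4950 to 18.8 against 47.0% for CG17107. The CMC differences were larger than the mock ones for CG4950 (2.94 against 1.82), CG15449 (2.56 against 1.76) and CG1092 (2.26 against 1.82), and smaller for CG17107 (1.74 against 2.38) and CG6310 (1.54 against 2.15).

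**Figure D2:**
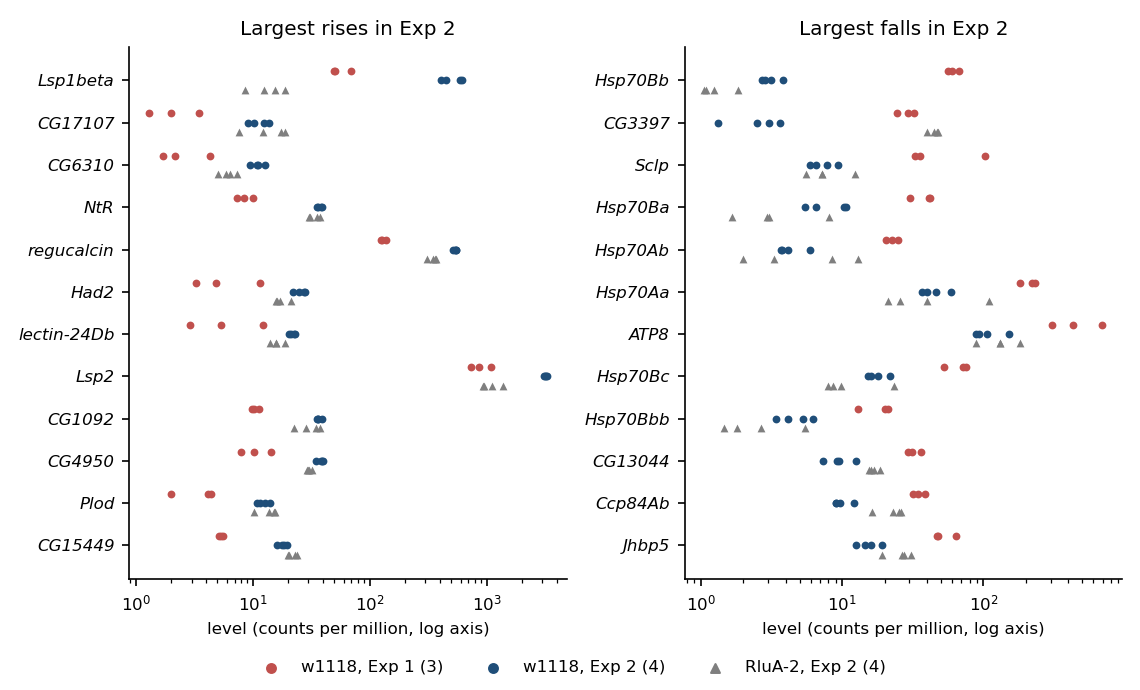
Levels in CPM (log axis) of 24 named genes, the 12 that rose most and the 12 that fell most in Exp 2 among those that passed the test without overlap of the experiments. Each point is a mock library, red for w1118 of Exp 1, blue for w1118 of Exp 2 and grey triangles for RluA-2 of Exp 2. The RluA-2 libraries lie nearer to Exp 2 for most of these genes, but below Exp 1 for Lsp1beta, near it for Lsp2, and above it for CG3397.

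The stress-induced Hsp70 copies led the falls. Hsp70 is the main heat-inducible chaperone of the fly, coded by 6 near-identical copies, so that the reads of 1 copy cannot be assigned with certainty and the sum is the firmer value. The 6 copies together were at 442, 357 and 454 CPM in Exp 1 and at 81.7, 104, 76.8 and 71.7 in Exp 2, 5.0-fold lower. Every copy passed the test, from −1.83 for Hsp70Bbb to −4.28 for Hsp70Bb, which was at 60.0, 56.4 and 66.8 in Exp 1 and at 2.85, 3.82, 3.13 and 2.70 in Exp 2 (SE 0.13, adjusted p = 4.55e-10). The listed share of every copy was over 1.5 times higher in Exp 1, with 80.2 against 32.8% for Hsp70Bb and 71.8 against 24.5% for Hsp70Ba. The CMC libraries gave −3.69 for Hsp70Bb, against −4.28 in the mock libraries, −3.16 for Hsp70Ba, against −2.35, and −2.15 to −2.22 for the other 4 copies. The RluA-2 libraries were at 1.06 to 1.82 for Hsp70Bb, so that all 8 libraries of Exp 2 were low.

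Most other members of the heat-shock list that passed the test were also lower, by less. Of the 15 tested members that are not Hsp70 copies 9 fell and 1 rose, with a median of −0.41, and in the CMC libraries 10 fell and 2 rose. With the Hsp70 copies 15 of 21 fell and 1 rose, with a median of −0.68 (all named genes: 14% lower, median 0.00). Among the small heat-shock proteins, which hold unfolded proteins in solution, Hsp26 fell by 1.13 (SE 0.11), Hsp27 by 1.00, Hsp67Bc by 0.72 and Hsp23 by 0.68. The co-chaperone DnaJ-1 was at 265, 267 and 256 CPM in Exp 1 and at 162, 230, 119 and 136 in Exp 2 (log2 difference −0.70, SE 0.16, adjusted p = 0.00639). Exp 2 replicate 2 was the highest of the 4 for DnaJ-1, for the Hsp70 sum and for the Hsp90 gene Hsp83, which was at 851, 880 and 857 in Exp 1 and at 591, 793, 553 and 548 in Exp 2 (−0.47, SE 0.11). The 1 member that rose was Hsc70-4, the chaperone made at all times, from 1944, 2104 and 2077 to 2568, 2530, 2515 and 2505 CPM (log2 difference 0.31, SE 0.07, adjusted p = 0.0048). Hsf, the transcription factor that switches on the heat-inducible members of the list, had a difference of −0.24 that did not pass (adjusted p = 0.0715).

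Several falls were in single genes with other roles. CG3397, a predicted aldo-keto reductase, was at 29.5, 24.5 and 32.0 CPM in Exp 1 and at 3.62, 2.47, 1.33 and 3.03 in Exp 2 (log2 difference −3.30, SE 0.25, adjusted p = 1.67e-06). Its listed share was 40.8% in Exp 1 and 9.79% in Exp 2, and the CMC libraries gave −2.76. In the RluA-2 libraries it was at 39.8 to 48.1, above both w1118 groups. Sclp was at 32.6, 103 and 35.7 in Exp 1 and at 6.52, 5.88, 7.81 and 9.40 in Exp 2 (log2 difference −2.94, SE 0.45, adjusted p = 0.000355), with Exp 1 replicate 2 well above the other replicates of that experiment, and with −3.08 in the CMC libraries (listed share 63.2 against 19.8%). In the CMC libraries of Exp 1 replicate 3 stood out instead, with 660, 513 and 1676 terminations in label order. The cause of this mismatch between the library types was not tested. Among cuticle and hormone-binding genes, CG13044 fell by 1.82 (SE 0.14), the cuticle protein Ccp84Ab by 1.80 (SE 0.13) and Jhbp5, of the juvenile hormone binding protein family, by 1.75 (SE 0.15). The CMC libraries gave −1.72 for CG13044 and −1.94 for Ccp84Ab, whose listed shares also differed over 1.5-fold, and −1.41 for Jhbp5.

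Low genes that the mock filter left out could be read in the CMC libraries, which held 10197095 to 16474718 terminations in gene spans. The largest fall was that of y (yellow, X:356509-361245, minus strand), which codes for a secreted protein needed for black pigment. It had 275, 164 and 175 CMC terminations in the 3 libraries of Exp 1 and 0 in all 4 of Exp 2, at least 354-fold lower with 3 counts over the group as the floor (adjusted p = 9.18e-08 over 8748 named genes). The RluA-2 libraries had 0, 0, 2 and 0, and the mock libraries listed 62, 36 and 29 in Exp 1 and 0 in Exp 2. It was the 1 named gene at 0 in every library of 1 experiment and at 10 or more in every library of the other.

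The genes around y were measured in both experiments. The transcription factor gene ewg, at lower coordinates on the X, had 1487, 1026 and 1402 CMC terminations in Exp 1 and 1594, 1942, 1422 and 1650 in Exp 2, and svr, a carboxypeptidase gene at higher coordinates, had 2415, 2063 and 2656 against 2984, 3693, 2795 and 3065. CG32816, whose span holds y on the opposite strand, was higher in Exp 2, with 26, 20 and 22 against 79, 119, 86 and 93 terminations (log2 difference 1.67, adjusted p = 1.14e-05). The w gene (white, X:2790599-2796466), the pigment transporter gene whose mutation names the strain, had 20, 15 and 19 terminations in Exp 1 and 0, 2, 0 and 0 in Exp 2, a ratio of 0.0214 with a counting interval of 0.00253 to 0.0811. The RluA-2 libraries held 269, 352, 263 and 328 terminations of w. The labels give both w1118 collections the same strain name.

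A few other genes changed by 8-fold or more in the CMC libraries. Map205, a microtubule-associated protein gene, had 345, 296 and 373 terminations in Exp 1, 12, 20, 8 and 10 in Exp 2 and 1053 to 1186 in the RluA-2 libraries. IFT54, of the machinery that builds cilia, had 258, 197 and 230 against 41, 29, 31 and 41, and 585 to 680 in RluA-2. Crg-1, a forkhead factor gene, had 120, 98 and 92 against 11, 17, 5 and 3, and fd3F, a forkhead factor of ciliated sensory neurons near it on the X, had 34, 19 and 17 against 0, 1, 0 and 0. RluA-2 libraries were low for Crg-1 and fd3F (4 to 7 and 0) and high for Map205 and IFT54. In the other direction mthl2, a methuselah-like receptor gene, had 15, 24 and 24 against 214, 271, 196 and 245, with 182 to 234 in RluA-2.

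Chromosome 4 stood apart from the other arms. This small chromosome is largely packed as heterochromatin, in which its active genes are bound by HP1a and by the protein Pof. Of its 69 tested genes 52 were lower in Exp 2 and 0 higher, a share of 75.4%, against 13.1% lower of the 5848 genes of the other arms and 14% of all named genes. The median was −0.46 on chromosome 4 and 0.01 on the other arms. The values of the experiments did not overlap for 56 of the 69 (35.6% of all named genes), and 66 of 69 were below 0. The genes of the chromosome held 2.46, 2.70 and 2.55% of the nuclear level in Exp 1 and 2.11, 2.12, 1.98 and 1.98% in Exp 2, and 1.99 to 2.13% in the RluA-2 libraries, so that all 8 libraries of Exp 2 lay below all 3 of Exp 1.

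**Figure D3:**
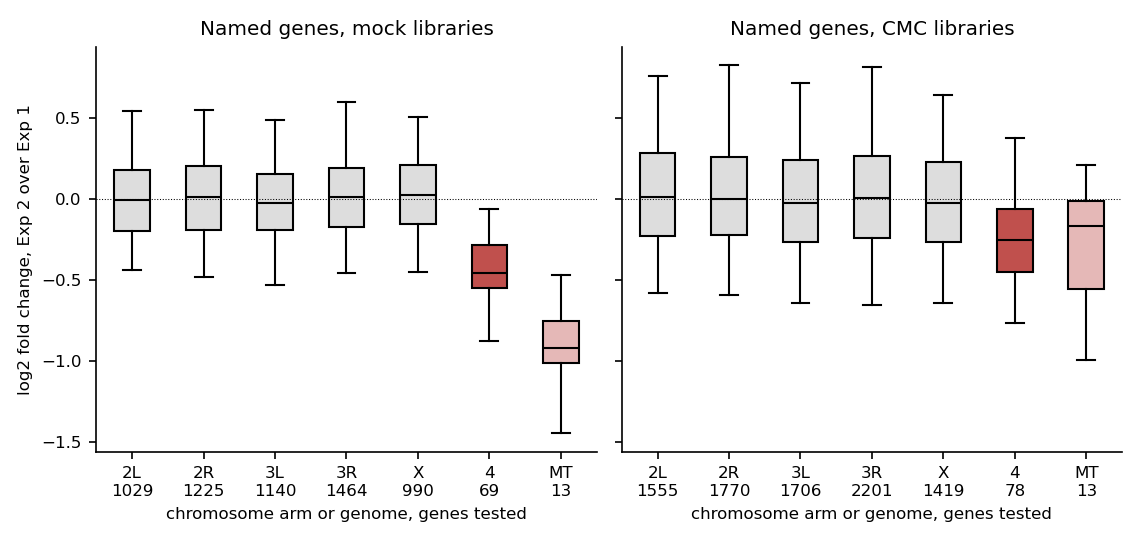
Log2 fold change, Exp 2 over Exp 1, of the named genes of each chromosome arm and of the mitochondrial genome (MT), in mock (left) and CMC libraries (right), with the number tested under each arm. Boxes span the middle 50% with the median as a line and whiskers run from the 5th to the 95th percentile. The medians of chromosome 4 (−0.46 mock, −0.25 CMC) and of the mitochondrial genome (−0.92 mock, −0.17 CMC) are the lowest, and those of the other arms lie near 0.

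The size of the chromosome 4 difference depended on the library type. In the CMC libraries 34 of 78 genes were lower and 8 higher, with a median of −0.25, and the chromosome's share of nuclear terminations overlapped between the experiments (1.88 to 2.14% in Exp 1 and 1.80 to 2.22% in Exp 2). The RluA-2 mock libraries of Exp 2 against the same Exp 1 libraries gave 58 lower and 1 higher of 69, with a median of −0.46, a comparison that shares the Exp 1 libraries with the first. Genes of chromosome 4 are long, with a median span of 9754 bases against 3046 on the other arms. Among the 35 genes in the middle of its lengths 28 were lower (median −0.46), and among 1114 genes of the same lengths on other arms 14% were lower (median −0.01). The ratio of the listed share in Exp 2 to that in Exp 1 had a median over genes of 1.06 on chromosome 4. Over all named genes the median was 1.15.

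By gene, Pur-alpha, a nucleic acid binding protein, was at 346, 407 and 354 CPM in Exp 1 and at 198, 185, 151 and 161 in Exp 2 (log2 difference −1.08, SE 0.10, adjusted p = 5.43e-06), with −0.63 in the CMC libraries. The kainate-type glutamate receptor gene Ekar was at 62.1, 68.2 and 68.4 against 27.6, 34.2, 32.9 and 32.5 (−1.07, SE 0.11). These were the 2 genes of the chromosome that passed 2-fold. Neuronal genes among the others were Syt7 (−0.99), a synaptotagmin, dpr7 (−0.85), a cell-surface recognition protein, CaMKII (−0.62), a calcium-dependent kinase of synapses, and unc-13 (−0.39), which primes vesicles for release. Genes of other tissues fell as well, among them bt (−0.50), the giant muscle protein projectin, and pho (−0.85), a Polycomb-group DNA-binding protein. RpS3A (−0.25), a ribosomal protein, and apolpp (−0.40), the main blood lipoprotein, also fell. In the CMC libraries the difference of apolpp was 0.003. ATPsynbeta had a difference of −0.16 that did not pass (adjusted p = 0.107). In the CMC libraries it was 0.37 and passed (adjusted p = 0.00518 by edgeR over the named genes tested there). In the mock libraries yellow-h (0.20), CG31997 (0.17), CG31999 (0.02), Mpv17 (−0.01), Gat (−0.06) and CG1674 (−0.11) did not pass either. The CMC difference of yellow-h, whose listed shares differed over 1.5-fold, was 0.78.

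Transcripts of the mitochondrial genome were lower in the mock libraries of Exp 2. All 13 protein-coding genes were below 0 and 12 passed the test, with a median of −0.92, and together they held 3.56, 4.07 and 3.01% of the mock level in Exp 1 and 2.41, 2.48, 1.78 and 1.96% in Exp 2. COX2, a cytochrome oxidase subunit, was at 6168, 5574 and 4747 CPM in Exp 1 and at 3156, 3111, 2166 and 2577 in Exp 2 (a log2 difference of −0.998, SE 0.13, adjusted p = 8.72e-05). The differences ran from −2.12 for ATP8 and −1.45 for ND6 to −0.47 for COX1, and ND4L (−0.36, adjusted p = 0.0502) did not pass. In the CMC libraries of the same RNA only ND3 (−1.10) and ND1 (−0.997) of the 13 passed and the median was −0.17. The RluA-2 mock libraries gave 12 of 13 lower than Exp 1 and a median of −0.82, again against the same Exp 1 libraries.

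Detoxification genes rose as a group. Of 69 measured cytochrome P450, glutathione transferase and UDP-glycosyltransferase genes 36 rose and 1 fell, against 14% each of all named genes, with a median of 0.35, and in the CMC libraries 74 of 111 rose and 5 fell. Cyp305a1, a P450 gene, was at 39.0, 45.7 and 44.2 CPM in Exp 1 and at 102, 105, 108 and 99.6 in Exp 2 (log2 difference 1.28, SE 0.09, adjusted p = 8.62e-07). Ugt37A3 rose by 1.54 (SE 0.17), Cyp309a2 by 1.28 (SE 0.22) and Cyp28a5 by 0.89 (SE 0.07), and GstE14, which acts in the making of ecdysone, fell by 0.50 (SE 0.11). The CMC libraries gave 1.58 for Cyp305a1, 1.70 for Ugt37A3, 0.74 for Cyp309a2 and 1.41 for Cyp28a5, whose listed shares were all over 1.5 times higher in Exp 2. Among the 39 members whose shares lay within 1.5-fold of each other 15 rose.

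Of 14 metal and oxidative stress genes 5 were higher and 1 lower. The metallothioneins MtnB and MtnA, which bind copper and zinc, rose by 1.96 (SE 0.40) and 0.80 (SE 0.10), and Cat, the peroxide-splitting catalase, rose by 0.70 (SE 0.07). Sod2, the mitochondrial superoxide dismutase, fell by 0.34 (SE 0.07). The 3 juvenile hormone epoxide hydrolase genes, which clear juvenile hormone, all rose, Jheh2 by 0.84 (SE 0.07), Jheh1 by 0.74 (SE 0.08) and Jheh3 by 0.54 (SE 0.12), and were the 3 called of 11 ecdysone and juvenile hormone genes. In the sugar and starch list 3 of 6 rose, Amy-p by 0.88 (SE 0.28), Mal-A5 by 0.36 and Treh by 0.34. The listed shares of MtnB and the Jheh genes were over 1.5 times higher in Exp 2, and the CMC libraries gave 2.08 for MtnB, 1.03 for Jheh1, 1.27 for Jheh2 and 0.55 for Jheh3. Without Exp 1 replicate 2, 5 of the hormone genes rose, and in the sugar list 2 rose and 2 fell.

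**Figure D4:**
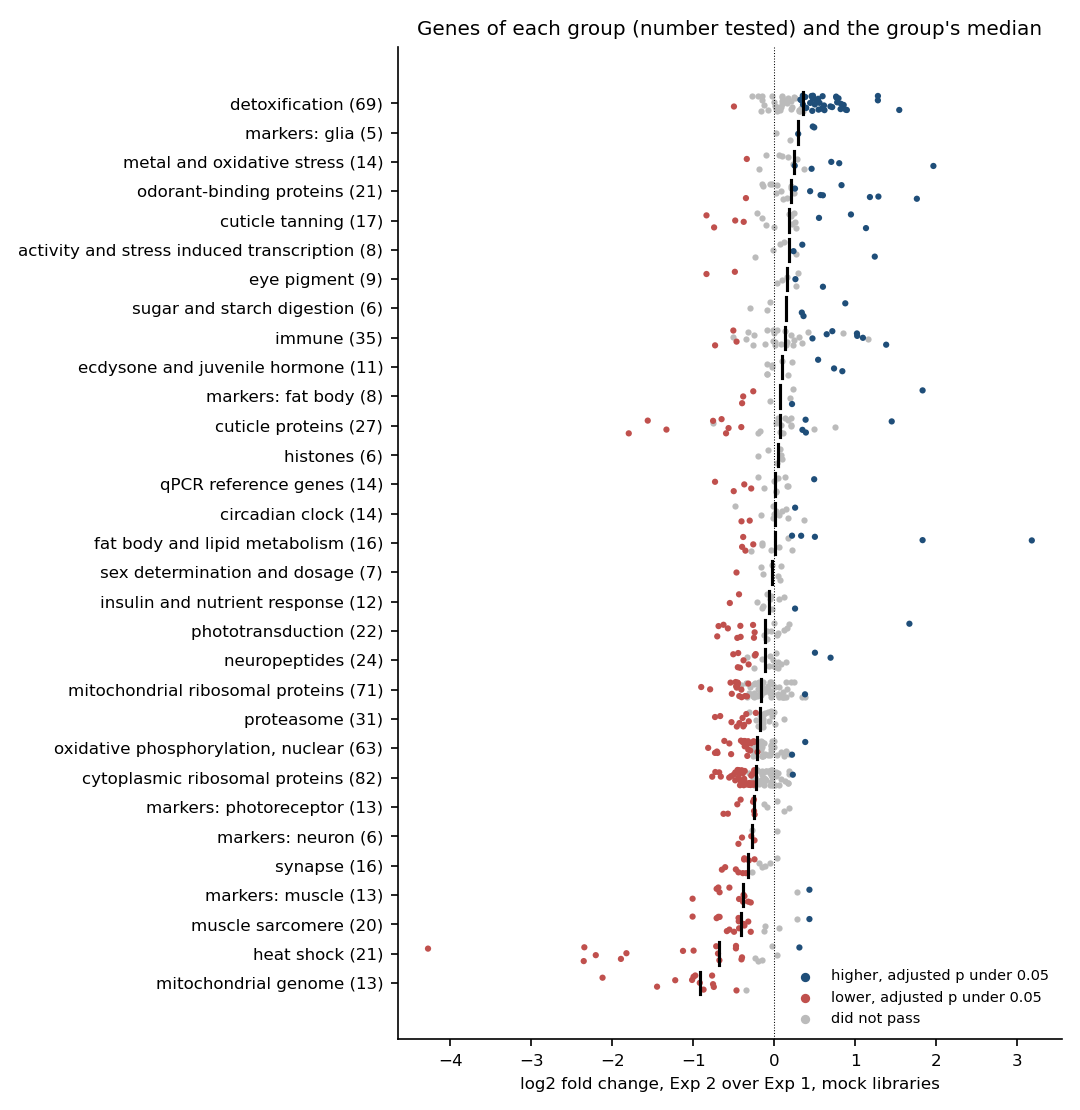
Log2 fold change, Exp 2 over Exp 1, of the tested members of each gene list and marker list in the mock libraries, 1 point a gene, with the list's median as a black bar and the number tested in brackets. Blue points rose and red points fell with an adjusted p under 0.05. Detoxification lies to the right and heat shock, muscle, synapse and the mitochondrial genome to the left of 0.

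Muscle and neuronal genes were lower. Of 20 sarcomere genes 15 fell and 1 rose (median −0.41), and in the CMC libraries 15 of 21 fell and 2 rose. The troponin I gene wupA was at 1211, 1488 and 1148 CPM in Exp 1 and at 648, 637, 646 and 617 in Exp 2 (log2 difference −1.01, SE 0.09, adjusted p = 4.06e-06), and Mlc2, a myosin light chain, fell by 0.69 (SE 0.08). The flight-muscle actin Act88F fell by 0.71 (SE 0.17) while Act79B, an actin of leg and other tubular muscles, rose by 0.43 (SE 0.08). Of 16 synapse genes 10 fell and 0 rose (median −0.33), led by the release-machinery genes Snap25 (−0.65, SE 0.08), cpx (complexin, −0.61, SE 0.10), comt (NSF, −0.48, SE 0.07) and Syt1 (synaptotagmin, −0.44, SE 0.09). Of the synapse genes 6 were lower in the CMC libraries, and 5 were in the mock libraries without the most rRNA-rich library of each experiment.

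Several genes of the light-sensing cascade fell in the mock libraries, where the main opsin was bounded. Of 22 phototransduction genes 10 fell and 1 rose, with a median of −0.11, and in the CMC libraries 8 of 23 fell and 5 rose, with a median of 0.06. Without the most rRNA-rich mock library of each experiment 6 were lower. norpA, the phospholipase C of the photoreceptor, was at 1270, 1835 and 1614 CPM in Exp 1 and at 1175, 929, 994 and 973 in Exp 2 (log2 difference −0.63, SE 0.11, adjusted p = 0.00139). The other falls included rdgC (−0.71, SE 0.09), a rhodopsin phosphatase, rdgA (−0.69, SE 0.10), a diacylglycerol kinase, and inaD (−0.57, SE 0.09), the scaffold of the cascade. The rise was ninaD, a scavenger receptor that takes up carotenoids for the visual pigment, at 21.1, 31.4 and 21.5 against 74.5, 89.7, 74.5 and 70.9 (1.67, SE 0.15). Its listed share was 16.9% in Exp 1 and 64.5% in Exp 2, and the CMC libraries gave 2.54. ninaE, the opsin of the outer photoreceptors, was at 16671, 15257 and 13996 against 14240, 14363, 13530 and 14042, with overlapping values (−0.12, adjusted p = 0.283). In the CMC libraries its difference was −0.28 and passed (adjusted p = 0.0391 by edgeR over the named genes tested there).

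Among genes of protein synthesis and respiration more fell than rose, by small amounts that depended on single libraries. Of 82 cytoplasmic ribosomal proteins 35 fell and 1 rose (median −0.23), with RpS12 (−0.77, SE 0.08) and RpL38 (−0.73, SE 0.11) the most changed and RpL18 (0.23, SE 0.07) the 1 that rose. Without the most rRNA-rich library of each experiment 19 of them were lower. Of 63 nuclear genes of oxidative phosphorylation 22 fell and 2 rose (median −0.21), the falls led by UQCR-11 (−0.82, SE 0.09) and the rises being UQCR-C2 (0.38, SE 0.11) and ND-75 (0.22, SE 0.07). Of 71 mitochondrial ribosomal proteins 16 fell and 1 rose (median −0.16), and of 31 proteasome subunits 11 fell and 0 rose (median −0.17). The background was 14% lower and 14% higher. Leaving out Exp 1 replicate 1 moved the medians to −0.12 for cytoplasmic ribosomal proteins, −0.10 for oxidative phosphorylation and −0.02 for mitochondrial ribosomal proteins, of which 10 then fell. Without it 6 cytoplasmic ribosomal proteins and 6 genes of oxidative phosphorylation rose, and without Exp 1 replicate 2, 37 genes of oxidative phosphorylation fell. Without Exp 2 replicate 4, 10 mitochondrial ribosomal proteins fell. The cytoplasmic ribosomal proteins held 10.3, 7.96 and 8.73% of the level in Exp 1 and 7.86 to 8.60% in Exp 2, and the genes of oxidative phosphorylation 4.29, 3.57 and 3.85% against 3.55 to 3.75%, so that the summed levels overlapped.

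Secreted proteins of sense organs and immunity varied by gene. Of 21 odorant-binding proteins, which carry odours in the fluid of the sensory hairs, 8 rose and 1 fell. Obp99b was at 53.9, 49.3 and 38.3 CPM in Exp 1 and at 127, 110, 116 and 110 in Exp 2 (log2 difference 1.28, SE 0.11, adjusted p = 3.39e-06), Obp19d rose by 0.83 (SE 0.10), Obp83cd by 1.76 (SE 0.34) and lush, needed to sense a male pheromone, by 1.18 (SE 0.38), and Obp56g fell by 0.35 (SE 0.11). The CMC libraries gave 1.31 for Obp83cd and 1.42 for lush, whose listed shares differed over 1.5-fold. Of 35 immune genes 7 rose and 3 fell, shares near the 14% in each direction of all named genes. The antifungal-family peptide Drsl5 was higher by 1.02 (SE 0.14) and the antibacterial attacin AttA by 1.09 (SE 0.34). The short immune peptide BomT1 was higher by 1.38 (SE 0.38), against 0.15 in the CMC libraries. The antibacterial peptide Def was lower by 0.73 (SE 0.17). With the replicate number as a block 8 immune genes rose and 8 fell, with a median of −0.02.

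Single genes of cuticle tanning changed in either direction. Of 17 tanning genes 3 rose and 4 fell, shares near the 14% in each direction of all named genes, and 5 rose without Exp 1 replicate 1. The rises were b (black, which makes beta-alanine) by 1.13, e (ebony, which joins it to dopamine) by 0.95, and speck, a dopamine acetyltransferase, by 0.55 (SE 0.07). The falls were Pu (Punch, which starts the synthesis of the hydroxylase cofactor) by 0.84 (SE 0.08), t (tan, which reverses the ebony step) by 0.74, Ddc, which makes dopamine, by 0.48 (SE 0.09) and the chitin synthase kkv by 0.38 (SE 0.09). The listed shares of b and e were over 1.5 times higher in Exp 2, and the CMC libraries gave 1.60 and 1.34. The other 10 of the 17 did not pass. Of 27 cuticle proteins 4 rose and 8 fell.

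Marker lists of the cell types of the head moved unevenly. Of 13 muscle markers 11 fell and 1 rose, and their CMC sum was 29235 to 30282 CPM of terminations in Exp 1 and 20197 to 21877 in Exp 2. Of 13 photoreceptor markers 8 fell and of 6 neuron markers 4 fell, with 0 rises in either list. Among the photoreceptor markers 5 fell and 2 rose in the CMC libraries, and 5 fell in the mock libraries without Exp 2 replicate 3 or replicate 4. Of the neuron markers 1 fell when Exp 1 replicate 2, Exp 1 replicate 3, Exp 2 replicate 1 or Exp 2 replicate 4 was left out, 2 fell without Exp 2 replicate 3, with voom or with total-count scaling, and the list's share of the level in Exp 1 replicate 1 (0.446%) lay within the range of Exp 2 (0.431 to 0.464%). Of 5 glial markers 3 rose and 0 fell, among them Gs2, a glutamine synthetase, at 1329, 1346 and 1429 CPM against 1971, 1904, 1960 and 1862 (log2 difference 0.49, SE 0.07, adjusted p = 0.000195), and repo, the master factor of glia (0.47, SE 0.11). Of 8 fat body markers 2 rose and 3 fell, and 1 rose without Exp 1 replicate 2, Exp 1 replicate 3, Exp 2 replicate 2, Exp 2 replicate 3 or Exp 2 replicate 4.

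Blood cell markers were higher in Exp 2. In the CMC libraries 5 of 6 rose, with a median of 2.01, and the list summed to 68.5 to 102 CPM of terminations in Exp 1, to 278 to 319 in Exp 2 and to 273 to 294 in the RluA-2 libraries. Hml, the hemolectin of blood cells, had 438, 560 and 540 CMC terminations in Exp 1 and 2669, 3401, 2740 and 2953 in Exp 2 (log2 difference 2.12, SE 0.14, adjusted p = 2.97e-07). In the mock libraries its difference was 0.96, where the listed share was 8.08% in Exp 1 and 34.8% in Exp 2. The phagocytic receptor gene eater had 31, 30 and 45 CMC terminations in Exp 1 and 193 to 281 in Exp 2, and the crystal-cell enzyme gene PPO1 had 80, 85 and 88 against 349, 511, 422 and 455. NimC1 (0.43, adjusted p = 0.0721) did not pass, and He was too low to test. No protein-coding ovary, eggshell, male or testis marker reached the mock filter of the named genes. Over both experiments the ovary and eggshell CMC sum was 2.19 to 4.04 CPM of terminations, from 4 genes, 2 of them at 0. The male and testis sum was 18.5 to 27.4, from 2 genes, 1 of them at 0. The male marker roX1, which is noncoding and was read from gene counts above, is not in that sum.

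The core clock genes per, tim and vri varied more within Exp 2 than between the experiments. In the daily clock, per and tim are made at night and shut off their own activators. tim was at 362, 376 and 393 CPM in Exp 1 and at 416, 98.8, 248 and 300 in Exp 2, per was at 82.7, 82.1 and 89.5 against 123, 34.7, 88.2 and 84.4, and vri, a repressor of the Clk gene, was at 88.7, 106 and 91.4 against 126, 26.6, 79.0 and 93.3. In all 3 genes Exp 2 replicate 2 was the lowest and Exp 2 replicate 1 the highest of the 7 libraries, while the Exp 1 libraries lay close together. Usp8, a deubiquitinase gene not on the clock list and chosen after its values were seen, had the same order, with 158, 154 and 149 against 228, 59.8, 140 and 165.

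**Figure D5:**
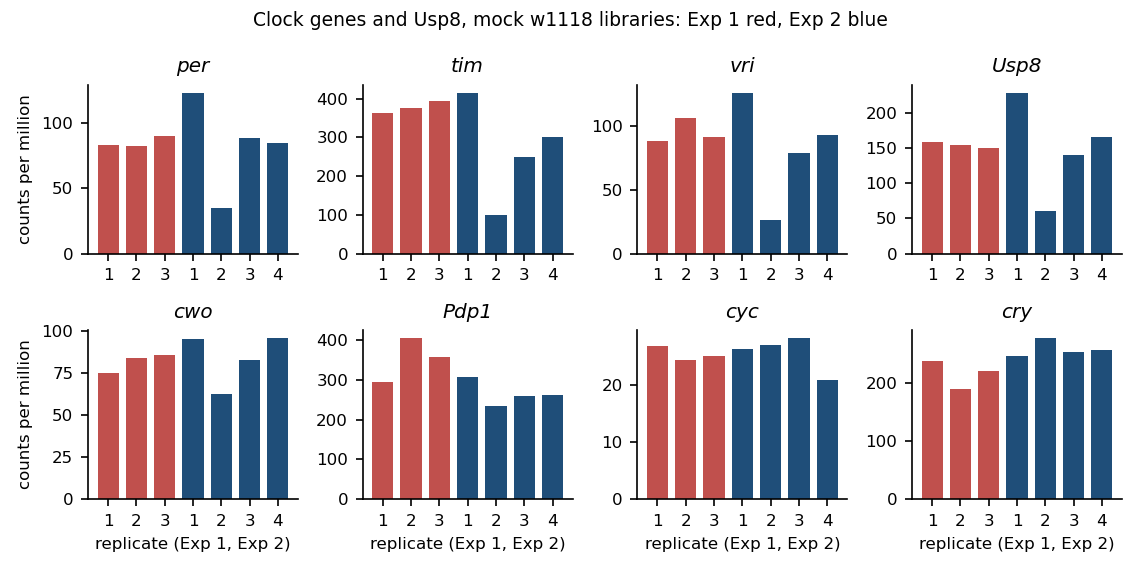
Bars give the level in CPM of 7 clock genes and of Usp8 in each mock w1118 library, red for the 3 replicates of Exp 1 and blue for the 4 of Exp 2, on axes that start at 0. Exp 2 replicate 2 is low for per, tim, vri and Usp8. It is also the lowest library for cwo and Pdp1, by less, and cyc and cry show no such drop.

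The same library stood low in the CMC part of its RNA, with 1708 tim terminations against 3282 to 6583 in the other Exp 2 libraries. Among the RluA-2 libraries tim was also uneven, at 316, 398, 166 and 108. The time of day of freezing of each replicate is not given in the sources used here. Of 14 clock genes 3 passed the test, a smaller share than the 28.0% of all named genes, and none of the 3 calls was made without Exp 1 replicate 3. They were cry, the blue-light receptor, higher by 0.26 (SE 0.08), Pdp1 and slmb. Pdp1, an activator of the Clk gene, was lower by 0.41 (SE 0.11). The gene slmb, which marks period protein for degradation, was lower by 0.30 (SE 0.09). The CMC libraries gave 0.59 for cry and 0.07 for slmb. The differences of per (0.02, SE 0.26) and tim (−0.49, SE 0.30) did not pass, with adjusted p of 0.967 and 0.241, and vri turned from −0.16 to 0.079 without Exp 2 replicate 2.

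Genes that varied most within an experiment were few. Of 5650 named genes, 75 had an SD above 0.5 on the log2 scale within Exp 1 and 15 within Exp 2, and 3 in both, while the median SD was 0.15 and 0.09. The largest dispersions among genes of at least 10 CPM belonged to DptA, DptB, AttB, vri and Sclp. The antibacterial diptericin DptA was at 19.7, 28.7 and 26.9 in Exp 1 and at 14.7, 2.84, 11.1 and 29.9 in Exp 2, and DptB at 25.1, 23.1 and 24.5 against 23.8, 14.7, 18.9 and 58.3. In Exp 2, replicate 4 was the highest and replicate 2 the lowest for both, and none of DptA, DptB and AttB passed the test (adjusted p = 0.324, 0.526 and 0.103).

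Among the bounded genes with the most CPM were yolk, eye and housekeeping messages. The yolk proteins, which the fat body of a female makes, were all bounded, with differences of 0.20 for Yp1, −0.05 for Yp2 and 0.23 for Yp3, and none passed the test. Yp1 was at 20042, 20380 and 22038 CPM in Exp 1 and at 25627, 24210, 22438 and 23166 in Exp 2 (adjusted p = 0.0965), and Yp3 at 16808, 15885 and 18145 against 21171, 20033, 19441 and 18898 (adjusted p = 0.0547), neither with overlap of the experiments. With DESeq2's Wald test or total-count scaling 2 of the 3 were called higher. Yp2, with overlapping values, was at 18608, 18929 and 20388 CPM in Exp 1 and at 19291, 19751, 17853 and 17488 in Exp 2. Arr1, the arrestin of photoreceptors, differed by −0.09 and the elongation factor gene eEF1alpha1 by −0.12. Bounded genes could still pass the test: Mhc, the muscle myosin, differed by −0.37 (SE 0.08, adjusted p = 0.00502), FASN1, a fatty acid synthase, by −0.26 and SERCA, the calcium pump, by −0.22. The CMC libraries gave −0.32 for Mhc, −0.01 for FASN1 and 0.18 for SERCA.

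Of 14 genes used as references in quantitative PCR 5 passed the test and 11 were bounded. These shares were not far from those of all named genes, of which 28.0% passed and 72.6% were bounded. SdhA was at 553, 579 and 581 CPM in Exp 1 and at 570, 579, 582 and 555 in Exp 2 (difference 0.00, 95% interval −0.14 to 0.14). Gapdh1 (0.05), Act5C (0.02) and alphaTub84B (0.02) were bounded as well. Rpt6 (−0.73, SE 0.18), RpS20 (−0.50, SE 0.07), 14-3-3epsilon (−0.37, SE 0.07) and Rap2l (−0.29, SE 0.09) were lower and Act42A (0.49, SE 0.09) higher. The 6 measured members of the histone list, 2 of which (HisCl1 and HisT) are not histones, did not pass the test.

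Small lists held single changes. Of 24 neuropeptide genes 8 fell and 2 rose, with Capa lower by 0.51 (SE 0.10), Hug by 0.45 (SE 0.08) and sNPF by 0.42 (SE 0.07), and Eh, the eclosion hormone that triggers shedding of the old cuticle, higher by 0.69 (SE 0.16; 0.82 in the CMC libraries, with a listed share over 1.5 times higher in Exp 2). Without Exp 1 replicate 3, Exp 2 replicate 1 or Exp 2 replicate 4, 5 neuropeptide genes fell. Of 8 activity- and stress-induced genes 3 rose, smp-30 by 1.24 (SE 0.15; 1.35 in the CMC libraries, with unequal listed shares), Jra by 0.35 and kay by 0.24. Without Exp 1 replicate 3, Exp 2 replicate 3 or Exp 2 replicate 4, 1 of this list rose, and in the CMC libraries 3 rose and 4 fell, with a median of −0.10 and with kay at −0.08. Of 12 insulin and nutrient genes foxo rose by 0.26 (SE 0.08), against −0.08 in the CMC libraries. Thor, a brake on translation, and ImpL2, an insulin-binding protein, fell by 0.44 (SE 0.09) and 0.55 (SE 0.19). Of 9 eye pigment genes bw (0.60, SE 0.09) and Hn (0.26, SE 0.07) rose and Pu and se (−0.49, SE 0.07) fell. No insulin and nutrient gene rose without Exp 1 replicate 3, Exp 2 replicate 1, Exp 2 replicate 3 or Exp 2 replicate 4, and 1 eye pigment gene rose without Exp 1 replicate 3, Exp 2 replicate 1 or Exp 2 replicate 4. Sxl, the female switch of sex determination, fell by 0.47 (SE 0.10), 1 of 7 in its list, and Nop60B, which makes the pseudouridines of rRNA, fell by 0.60 (SE 0.12), 1 of 4 measured pseudouridine synthases.

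Most mock differences were found again in the CMC part of the same RNA samples, which is another library and not another collection. Of 3321 genes called in the mock libraries and tested in both, 2283 (68.7%) passed in the same direction in the CMC libraries and 13 in the opposite one, and of 355 with at least a 2-fold difference 315 (88.7%) did so and 0 were opposite. The background in the CMC libraries was 41.9% of 10064 genes called, 22.0% higher and 19.9% lower. For the named genes 1183 of 1660 (71.3%) passed in the same direction, with 6 opposite. A direct test of the difference between the library types found 950 of 10410 genes (9.13%) with an unequal change, and 846 of 5930 named genes (14.3%).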

How the data were processed

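Poly(A) RNA of w1118 heads was measured in 7 mock libraries, with the 7 CMC and the RluA-2 libraries used beside them. The authors trimmed reads with Trimmomatic 0.33, removed rRNA with Bowtie2, aligned the rest with STAR 2.6.1a to FlyBase release FB2017_04 and counted uniquely mapped, strand-specific read pairs per gene with featureCounts 2.0.0, so the deposited values are raw counts with no normalization. The authors also deposited counts of terminations per position and strand, each listed as the count plus 1, which was subtracted.

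Counts were compared with edgeR 4.0.16 (TMM, filterByExpr, quasi-likelihood F-test, R 4.3.3) and adjusted by the Benjamini-Hochberg method at 0.05; the SE is the log2 difference over the root of F. Named genes were measured by terminations in the spans of 13959 protein-coding genes of the RefSeq annotation of fly release 6, on the strand with most CMC terminations (at least 20, 10202 genes), with the listed share as an offset, estimated from the CMC counts of other pairs (mean share at least 0.2, and at least 10 terminations in at least 3 libraries). Levels are CPM and are not divided by length, so the order of levels between genes, which picks the 10 highest bounded genes, also reflects their length. Intervals of count ratios are exact 95% binomial ones and reflect counting error alone, as reads copied by PCR do not each stand for a molecule. Simulated data of 10253 genes by gene counts held 200 changed genes, fewer than the 3366 called in the data. The changed genes were drawn only from those with higher expected counts, so the recovery does not cover low genes. It was 97% of 2-fold and 82% of 1.5-fold changes, with 8.67% of the calls false. For 5933 named genes it was 97% and 84%, with 4.23% false. There the listed share used to simulate was also the offset, so an error of the share correction could not show.

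The genes named are the 12 largest rises and 12 largest falls without overlap and with at least 10 CPM, the 10 highest bounded genes, the 5 largest dispersions, called members of the lists (up to 4 a list, and all of short lists) and genes at 0 in 1 experiment only. Genes of chromosome 4, the neighbours of y, the low genes read in the CMC libraries and further list members were named after their values were seen. Members and lists were chosen with earlier results of these data known. The experiments' replicate numbers showed no steady pairing of the libraries. Alternatives were DESeq2 1.42.0 with its size factors or Wald test, limma 3.58.1 voom, total-count scaling, other filters, all mock libraries, each library left out, a replicate block the CMC libraries and, chosen after seeing the data, the fits without the rRNA-rich libraries or with other limits on the listed share. No promoter or gene sequence was used here.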

Additional observations from a re-analysis of the deposited data

Results flagged for a closer look

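Among the 131 named genes screened, 2 had an Exp 2 library that stood apart from the other 3 by Dixon's criterion, and chance alone marks about 1 in 20 groups. Nop60B was at 25.2 CPM in Exp 2 replicate 3 and at 31.7 to 32.1 in the others, and Act42A was at 64.7 in the same library and at 56.3 to 57.1 in the others.

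For 28 of the 131 genes the change from Exp 1 to Exp 2 differed between the CMC and the mock libraries, by edgeR's test of the interaction adjusted over 5930 named genes. The values below are the log2 difference in the CMC libraries minus that in the mock libraries. The CMC difference was the higher one for ND-AGGG 0.81, ATPsynbeta 0.53, Cyp28a5 0.51, UQCR-11 0.39, ninaD 0.87, Jheh2 0.42, SERCA 0.39, e 0.39, apolpp 0.40, Cat 0.31, mRpS5 0.36, slmb 0.38, Hn 0.32, ND6 0.93, cry 0.32, CG4950 1.10, b 0.46, TpnC41C 0.43, ND-MLRQ 0.25, rdgC 0.23 and t 0.26. It was the lower one for MtnA −0.35, Hsp70Ba −0.85, Pdfr −0.33, foxo −0.34, kay −0.31, BomT1 −1.22 and Mlc2 −0.26. The adjusted p ran from 0.000425 for ND-AGGG, an accessory subunit of complex I, to 0.0484 for Mlc2. The listed share differed over 1.5-fold between the experiments for CG4950, ninaD, Cyp28a5, Jheh2, e, b and Hsp70Ba (71.8% in Exp 1 and 24.5% in Exp 2 for the last), and its part in these differences was not tested.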

How the results depend on the processing

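Recomputing the main counts and spreads under the alternatives listed at the start gave 208 values close to the reported one (within 1.5 times for counts) and 8 that moved further, and alternatives chosen after seeing the data (leaving out the rRNA-rich libraries, and both settings of the listed share) gave 22 and 11. For counts over all genes, 120 of 7080 genes with a mean of at least 10 CPM differed at least 2-fold, and leaving out the library with the most rRNA in each experiment gave 2010 calls by gene counts and 829 of 5999 by named genes. Without those libraries 19 cytoplasmic ribosomal protein, 6 phototransduction and 5 synapse genes were lower. From the CMC libraries 3831 named genes were called, with 74 detoxification and 14 odorant-binding protein genes higher and 34 chromosome 4, 6 synapse and 2 mitochondrial genome genes lower. With a mean listed share of at least 0.5, 1025 of 2270 named genes were called, with 16 detoxification genes higher and 8 heat shock and 29 chromosome 4 genes lower, and with listed shares within 1.5-fold of each other 15 detoxification genes were higher and 9 heat shock genes lower. The last 2 settings test fewer genes, and the cause of the other shifts was not tested.

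Leaving out 1 library at a time gave 2435 to 3926 calls by gene counts and 1233 to 1995 by named genes, and a biological coefficient of variation in Exp 2 of 6.87 to 8.49%. DptB ran from −0.30 without Exp 2 replicate 4 to 0.53 without Exp 2 replicate 2, and vri from −0.47 without Exp 2 replicate 1 to 0.079 without Exp 2 replicate 2. Same-numbered replicates of the experiments correlated at 0.036, 0.15 and 0.39, the last being the highest of any pair, so no steady pairing by number was seen. The headers of the deposited counts number the Exp 1 replicates 1, 3 and 4, and the labels, which say 1, 2 and 3, were used throughout. By the header numbers the pairs correlated at 0.036, −0.12 and −0.18. With a replicate block over replicates 1 to 3, 2383 genes were called, against 2435 without it, and DptB was at −0.33. Total-count scaling gave 2153 higher and 1287 lower genes and moved the median of all genes by 0.04.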
